A study of Mus musculus with 15 samples.

Results

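Imprinted genes are expressed mainly or only from the chromosome inherited from one parent. They lie in clusters, here called domains, in which a differentially methylated imprinting control region is marked in the egg or in the sperm and sets which parental copy is transcribed. Many of them act in foetal growth, in the placenta and in the brain, and several are most abundant in developing neurons. A list of 55 imprinted genes and transcripts in 22 domains, all outside the *Peg10* domain, was examined in RNA sequencing data of *Phf6*-deleted mouse cortex and cortical neurons. Of the 55, 54 were found among the 23132 genes retained, and *Zfp264* was not matched. They were grouped by domain and by the parental copy known to be expressed. This gave 26 paternally expressed and 15 maternally expressed genes, 6 genes whose imprinting is known chiefly from the placenta, and 7 genes imprinted only in some isoforms or cell types. The reads were counted per gene in inbred C57BL/6 mice, so the parental copies could not be told apart and the values are sums over both.

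PHF6 is a chromatin-associated protein encoded on the X chromosome. The E15.5 cortices were 3 *Phf6*+/Y controls and 5 *Phf6*-/Y samples with germline deletion, taken directly from the foetus, from litters 1 to 3. The E16.5 cortical neurons were short-term primary cultures from litters 4 to 7, with 3 *Phf6*+/Y;*Nes*-creTg/+ controls and 4 Phf6lox/Y;*Nes*-creTg/+ samples, in which loxP-flanked *Phf6* exons are removed by a Cre recombinase expressed in neural progenitors and their descendants. The *Nes*-cre transgene was present in every neuronal sample, controls included, and in no cortex sample, and all foetuses were male and of the C57BL/6 strain. Litter 7 held 1 deleted culture and no control, and so did not contribute to the genotype comparison, which was made between littermates.

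Total counts per library ranged from 16858007 to 31157700 over the 15 libraries. Levels are given as CPM, read counts scaled to a common library size. Reads over the whole *Phf6* gene were at 181 ± 21.5 CPM (SD, n = 3) in control and 50.3 ± 5.98 (n = 5) in deleted cortices, and at 233 ± 16.1 (n = 3) and 66.8 ± 10.4 (n = 4) in the neurons, with no overlap between the genotypes. In the cortex, some libraries stood apart in summed markers of other cell types or brain regions. The summed level of 10 meningeal fibroblast markers was 309 CPM in control replicate 3 and 596 CPM in deleted replicate 4, both of litter 1, against 29.7 to 134 CPM in the other libraries. The summed level of 10 genes of subcortical brain regions was 797 CPM in control replicate 1 and 1095 CPM in deleted replicate 1, both of litter 3, against 586 to 719 CPM in the others. The genes were *Dlx1*, *Dlx2*, *Dlx5*, *Six3*, *Isl1*, *Tcf7l2*, *Lhx9*, *Gbx2*, *Lhx6* and *Gad1*. Of these, *Dlx1*, *Dlx2*, *Dlx5*, *Lhx6* and *Gad1* are also genes of inhibitory interneurons, which the cortex itself holds. The sum, called subcortical here, therefore does not separate subcortical tissue from cortical interneurons. Within each litter the subcortical sum was higher in the deleted cortices than in their control, at 672 and 634 against 619 CPM in litter 1, 719 and 676 against 586 CPM in litter 2 and 1095 against 797 CPM in litter 3. None of the 10 genes had an FDR below 0.05 by edgeR, and the median log2 fold change was 0.21. At an unadjusted p below 0.05, 3 of the 10 had a positive value, against 5.69% of all genes tested. The 8 choroid plexus markers summed to 528 and 381 CPM in control replicates 2 and 3 and to 376 CPM in deleted replicate 4, against 10.5 to 105 CPM in the other 5 cortices. The 8 cortical neuron markers were lowest, at 4979 CPM, in the same deleted replicate 1. In the neuronal cultures the meningeal sum was 12.7 to 18.6 CPM and the endothelial and mural sum 6.28 to 8.22 CPM in controls and 8.35 to 11.96 CPM in deleted cultures. The choroid plexus sum was 4.09 to 5.80 CPM in controls and 7.18 to 27.3 CPM in deleted cultures, where *Ttr*, the transthyretin gene, was higher by a log2 fold change of 2.84 (SE 0.27, FDR = 0.00019). In the control cultures, 1 of the 10 meningeal and 2 of the 10 endothelial and mural markers were at 0 in every library.

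The start regions of the 3 genes that changed with genotype are shown for their CpG content and need not be regions that control imprinting. They are taken from RefSeq on GRCm38.p6, run from 250 bases before to 50 bases after an annotated transcription start, are written 5′ to 3′ on the strand of the gene, and have their CpG dinucleotides, the sites of DNA methylation, in capitals.
*Zdbf2*, upstream start, chr1:63200108-63200407, plus strand: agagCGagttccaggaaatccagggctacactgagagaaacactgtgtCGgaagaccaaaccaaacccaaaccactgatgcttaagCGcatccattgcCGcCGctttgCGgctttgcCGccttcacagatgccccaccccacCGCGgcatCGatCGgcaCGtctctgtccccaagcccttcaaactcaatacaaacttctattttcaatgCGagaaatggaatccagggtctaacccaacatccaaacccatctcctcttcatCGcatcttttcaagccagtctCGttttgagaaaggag
*Zdbf2*, downstream start, chr1:63273019-63273318, plus strand: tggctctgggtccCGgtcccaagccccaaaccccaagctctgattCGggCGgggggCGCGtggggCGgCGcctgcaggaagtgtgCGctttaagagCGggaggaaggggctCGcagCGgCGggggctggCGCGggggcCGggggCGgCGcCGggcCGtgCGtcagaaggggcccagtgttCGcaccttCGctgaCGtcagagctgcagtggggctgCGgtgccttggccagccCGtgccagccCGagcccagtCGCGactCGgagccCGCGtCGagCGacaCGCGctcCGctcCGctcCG
*Peg3*, chr7:6730370-6730669, minus strand: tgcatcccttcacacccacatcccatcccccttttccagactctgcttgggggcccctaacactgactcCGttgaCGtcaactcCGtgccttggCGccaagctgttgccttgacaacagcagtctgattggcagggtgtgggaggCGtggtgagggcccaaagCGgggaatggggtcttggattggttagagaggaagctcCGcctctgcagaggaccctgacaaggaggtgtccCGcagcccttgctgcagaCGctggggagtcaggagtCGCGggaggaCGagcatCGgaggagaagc
*Nap1l5*, chr6:58907077-58907376, minus strand: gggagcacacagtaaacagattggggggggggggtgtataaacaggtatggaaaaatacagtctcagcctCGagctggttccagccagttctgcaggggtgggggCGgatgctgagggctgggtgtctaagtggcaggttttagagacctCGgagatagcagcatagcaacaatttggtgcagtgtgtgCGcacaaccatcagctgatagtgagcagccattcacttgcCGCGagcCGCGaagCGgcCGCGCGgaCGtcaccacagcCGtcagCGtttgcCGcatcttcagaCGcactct

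These 4 windows differed widely in CpG content. The downstream *Zdbf2* window held 38 CpG dinucleotides, more than 93.3% of the 21190 windows of all retained genes. The upstream *Zdbf2* window held 15, the *Peg3* window 13 and the *Nap1l5* window 17, near the median of 14 over all windows. The *Peg3* window shared 263 bases with that of *Usp29*, its neighbour transcribed in the opposite direction. The hexamer TGCCGC is the sequence that the imprinting factor ZFP57 recognises when methylated. Read on both strands, with any overlap counted, it occurred 3 times in the upstream *Zdbf2* window, 2 times in the *Nap1l5* window and not in the letters of the other 2. Over the 68 windows of the 45 imprinted genes that had one, 16 (23.5%) held it, against 14.6% of all windows. No methylation or binding was measured in these samples.

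*Zdbf2* was the only one of the listed imprinted genes raised in both tissues at an FDR below 0.05 by edgeR. It encodes a zinc finger protein of the DBF type and is expressed from the paternal copy. In control cortices it was at 81.5, 67.4 and 67.7 CPM in replicates 1 to 3, and in *Phf6*-/Y cortices at 164, 105, 108, 101.4 and 96.0 CPM in replicates 1 to 5. Every deleted cortex lay above every control, and deleted replicate 1 lay far above the rest. The log2 fold change was 0.72 (SE 0.08), with FDR = 0.0022 by the quasi-likelihood F test of edgeR, fitted with a litter term (FDR is the Benjamini-Hochberg value over all genes tested throughout). Within litters 1, 2 and 3 the difference was 0.54, 0.66 and 1.01 on the log2 scale. In control neurons *Zdbf2* was at 49.4, 39.6 and 56.5 CPM, and in *Phf6*-deleted neurons at 70.7, 82.6, 67.2 and 73.2 CPM, again with no overlap. The log2 fold change was 0.62 (SE 0.08, FDR = 0.0040), and the difference was 0.74, 0.76 and 0.37 within litters 4, 5 and 6. The effects in the 2 tissues differed by -0.10 on the log2 scale (SE 0.13, FDR = 0.957), neurons minus cortex. Without deleted replicate 1, the cortex log2 fold change was 0.61 (FDR = 0.0040), and without both libraries of litter 3 it was 0.60 (FDR = 0.0089). Litter 3 held 1 control and 1 deleted cortex, so both fits compare genotypes in litters 1 and 2 only and are not separate checks. In the neurons the FDR was 0.054 without control replicate 2, with a log2 fold change of 0.56, a fit to which litter 5 no longer contributed. The counts do not separate transcripts from the 2 starts, and the *Zdbf2* span overlaps that of *Gpr1*, which had too few reads to be tested.

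*Adam23*, a neighbour on chromosome 1 that encodes a catalytically inactive adhesion protein of neurons, was at 27.9, 29.55 and 26.2 CPM in control cortices and at 30.9, 36.5, 32.6, 28.6 and 33.6 CPM in *Phf6*-/Y cortices. The groups overlapped only through deleted replicate 4 and control replicate 2. Its log2 fold change was 0.21 (SE 0.09, FDR = 0.450) in the cortex and 0.05 (SE 0.10, FDR = 0.918) in the neurons.

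*Peg3*, which encodes a paternally expressed zinc finger transcription factor, rose in the cortex. It was at 151, 118 and 114 CPM in control replicates 1 to 3 and at 254, 158, 159, 189 and 148 CPM in deleted replicates 1 to 5. The highest control, from litter 3, lay above the lowest deleted sample, from litter 1, whereas within each litter every deleted sample exceeded its control. The log2 fold change was 0.56 (SE 0.09, FDR = 0.0227), with differences of 0.56, 0.42 and 0.75 within litters 1, 2 and 3. In the neurons *Peg3* was at 81.4, 71.1 and 74.3 CPM in controls and at 91.4, 88.9, 71.6 and 80.7 CPM in deleted samples, and the groups overlapped. The log2 fold change there was 0.09 (SE 0.07, FDR = 0.719).

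*Nap1l5*, a paternally expressed retrogene of the nucleosome assembly family that lies in an intron of *Herc3*, also rose in the cortex. It was at 33.8, 29.1 and 26.6 CPM in controls and at 51.8, 48.3, 44.4, 33.2 and 36.8 CPM in *Phf6*-/Y samples. Deleted replicate 4 lay just below control replicate 1, and within litters all deleted samples exceeded their control. The log2 fold change was 0.55 (SE 0.09, FDR = 0.0227), with differences of 0.39, 0.67 and 0.62 within litters 1, 2 and 3. In the neurons *Nap1l5* was at 38.8, 34.1 and 34.0 CPM in controls and at 37.8, 40.9, 34.6 and 32.0 CPM in deleted samples, with full overlap and a log2 fold change of 0.01 (SE 0.09, FDR = 0.990). *Herc3*, the host gene, encodes a HECT-type ubiquitin ligase. It was at 64.4, 76.3 and 71.0 CPM in control cortices and at 49.1, 69.0, 76.0, 64.9 and 76.1 CPM in deleted ones, with a log2 fold change of -0.14 (SE 0.09, FDR = 0.629). In the neurons all deleted cultures, at 80.2 to 99.0 CPM, lay below all controls, at 99.8 to 117 CPM, by a log2 fold change of -0.21 (SE 0.07, FDR = 0.302). Host and retrogene therefore had values of opposite sign in the cortex, where only the retrogene passed the test.

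The calls for *Peg3* and *Nap1l5* were less firm than that for *Zdbf2*. Both were lost when 1 of 5 cortex libraries was left out. The FDR of *Peg3* was then 0.115 without control replicate 1, 0.0977 without control replicate 2, 0.129 without control replicate 3, 0.0712 without deleted replicate 1 and 0.0839 without deleted replicate 2. That of *Nap1l5* was 0.115, 0.202, 0.0605, 0.0783 and 0.113 without the same libraries. Each cortex litter had 1 control, so leaving out a control, or deleted replicate 1, took its whole litter out of the comparison. The log2 fold changes stayed between 0.49 and 0.64 for *Peg3* and between 0.49 and 0.65 for *Nap1l5* over all 8 libraries left out in turn. The litter term also carried these calls, as none of the 3 genes passed the test without it, when the FDR was 0.53 for *Zdbf2*, 0.65 for *Peg3* and 0.53 for *Nap1l5*. For *Zdbf2* in the neurons it was 0.293 without the litter term.

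**Figure D1:**
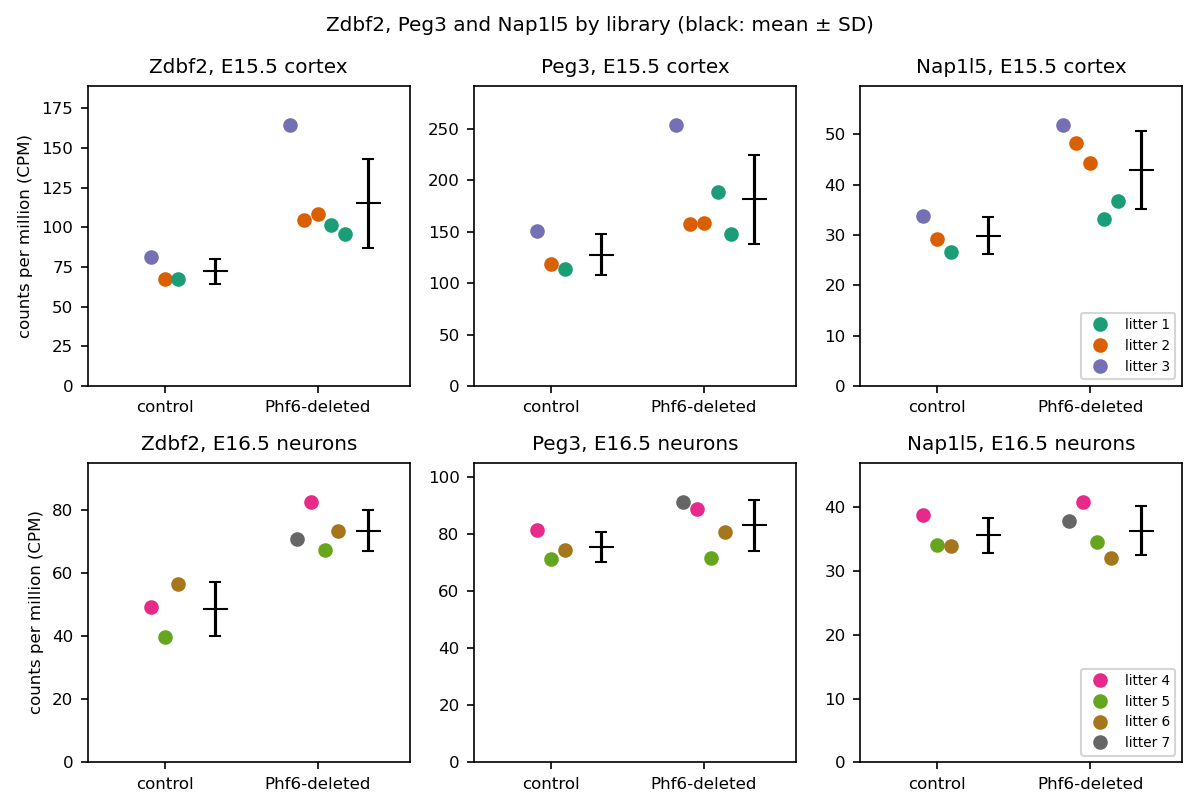
CPM of Zdbf2, Peg3 and Nap1l5 in each library of the E15.5 cortex (top) and E16.5 neurons (bottom), by genotype, with points coloured by litter and black bars giving the mean ± SD. Zdbf2 was higher in every Phf6-deleted library than in every control in both tissues, whereas Peg3 and Nap1l5 were separated within litters in the cortex and overlapped in the neurons.

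In the cortex, 50 of the 54 imprinted genes with counts passed the filter on low counts. By edgeR and by limma, the 3 genes above were the ones with an FDR below 0.05, all of them upregulated and paternally expressed. DESeq2 also called the paternally expressed *Rtl1* (FDR = 0.0172) and *Magel2* (FDR = 0.00062) and the maternally expressed *Rian* (FDR = 0.0039), all upregulated. At this FDR, 0.386% of all genes changed. Upregulation was found for 0.319% of the 14750 genes tested, and downregulation for 0.0678%, with none of the 50 imprinted genes among the latter. At an unadjusted p below 0.05, 16 of the 50 had a positive and 3 a negative log2 fold change, or 32% and 6%, against 5.69% and 4.77% of all genes (10.5% together). The median log2 fold change was 0.14 over the 50 and -0.002 over all genes. Of the 25 paternally expressed genes tested, 12 were in the positive group and 2 in the negative, with a median of 0.19. Of the 13 maternally expressed genes, 1 was in the positive group and the median was 0.10. The difference between these classes was not tested. Without litter 3, 11 of the 50 were positive and 5 negative at this p, against 4.86% and 3.67% of all genes, and the median was 0.15. With single libraries left out, the median ran from 0.05 without control replicate 2, the only control of litter 2, to 0.23 without control replicate 3. Without control replicate 2, 31 of the 50 had a value above 0. At this p, 9 of them were then positive and 0 negative, against 751 and 605 of all 15068 genes. The size of the shift therefore depended on single libraries. In all 3 litters the deleted samples exceeded the control on average for 20 of the 50 imprinted genes (40%), against 16.2% of all genes, and lay below it for 5 (10%), against 16.8%. Complete separation was rarer. The 5 deleted cortices lay above all 3 controls for *Zdbf2* and *Rian* (4% of the 50, against 2.34% of all genes) and below them for *Mkrn3* and *Nap1l4* (4%, against 2.93%).

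**Figure D2:**
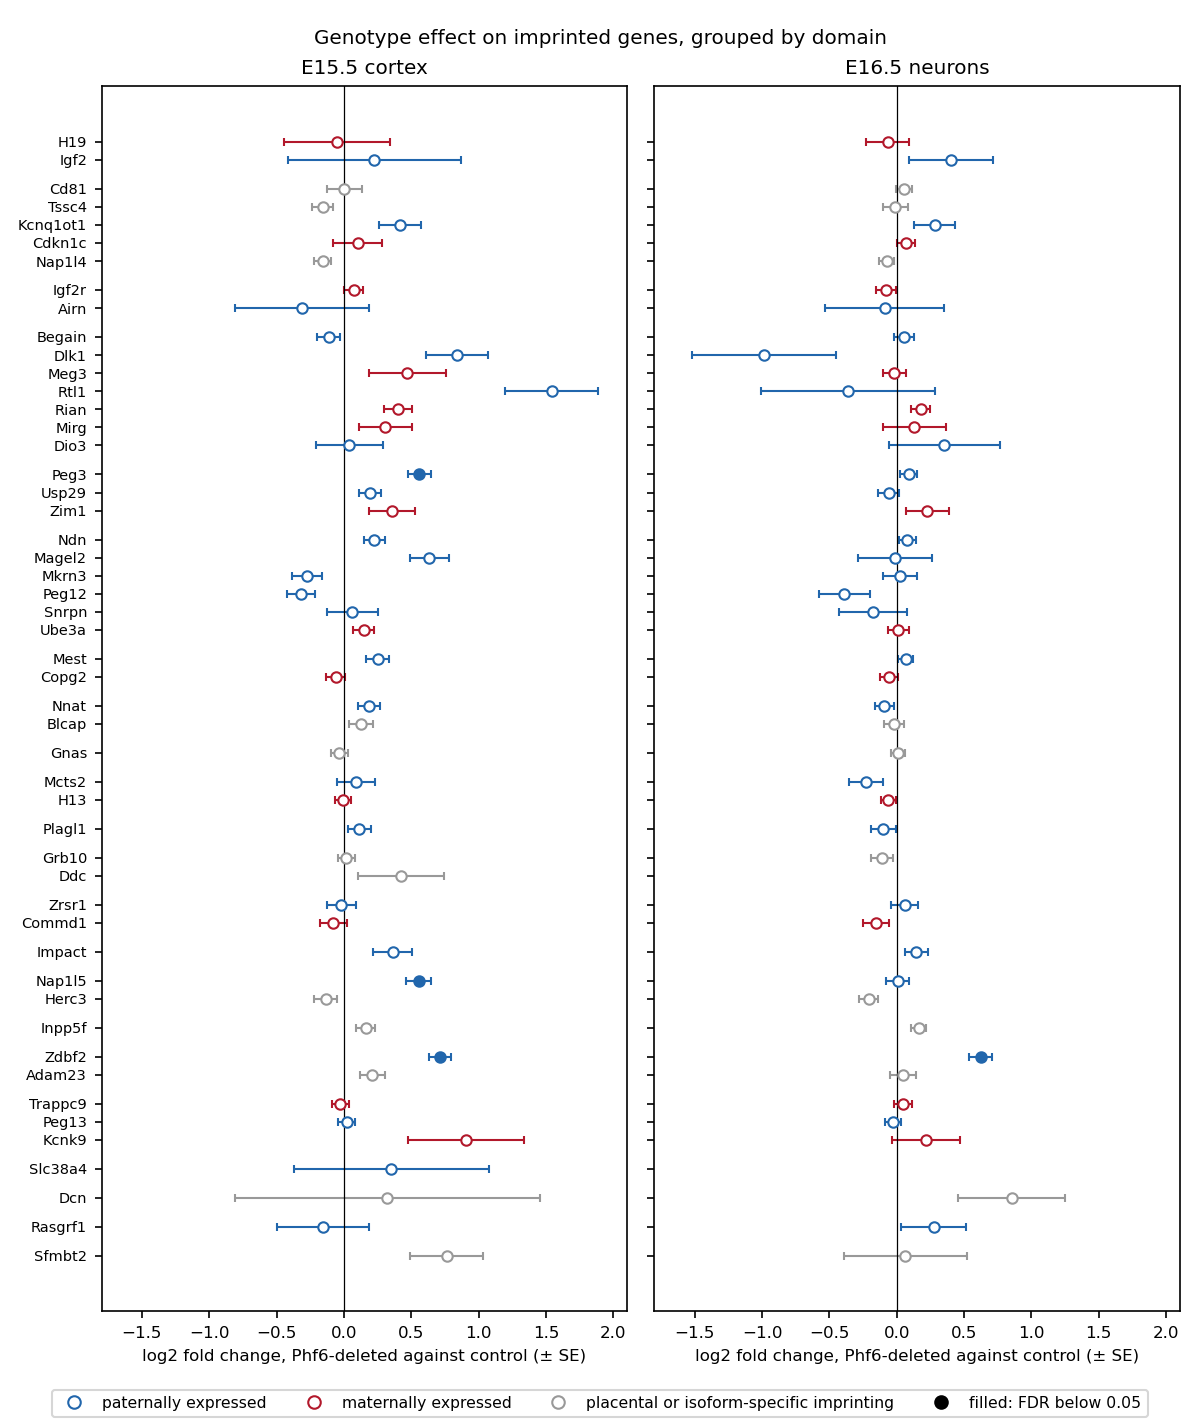
Log2 fold change (± SE) of each imprinted gene tested, Phf6-deleted against control, in the E15.5 cortex (left) and E16.5 neurons (right), grouped by domain and coloured by the parental copy expressed, with filled points where the FDR was below 0.05. The filled points are Zdbf2, Peg3 and Nap1l5 in the cortex and Zdbf2 in the neurons. In the cortex, 35 of the 50 points lie above 0, and in the neurons 26 of 48.

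The *Dlk1*-*Meg3* domain on chromosome 12 carries paternally expressed protein-coding genes and maternally expressed noncoding RNAs. In the cortex, 6 of its 7 listed genes had positive values, with a median of 0.40. None passed the FDR threshold by edgeR, by which 3 had an unadjusted p below 0.05, whereas DESeq2 called *Rtl1* and *Rian*, and edgeR without the filter on low counts called *Rtl1* (FDR = 0.0445). *Rtl1*, which encodes a retrotransposon-derived protein, had the largest log2 fold change of any imprinted gene tested, at 1.54 (SE 0.35, FDR = 0.09), from low levels. It was at 1.48, 0.92 and 0.38 CPM in control replicates 1 to 3 and at 5.67, 2.59, 1.71, 1.33 and 0.88 CPM in deleted replicates 1 to 5. The highest values came from litter 3 and the lowest from litter 1 in both genotypes. *Dlk1*, a ligand-like protein that modulates Notch signalling, was at 47.4, 21.3 and 20.8 CPM in controls and at 122, 38.9, 32.6, 37.0 and 21.7 CPM in *Phf6*-/Y cortices, a log2 fold change of 0.84 (SE 0.23, FDR = 0.293). The litter 3 library of each genotype was the highest of its group, and the value was 0.62 (FDR = 0.509) without litter 3 and 1.03 (FDR = 0.0222) without litter 1. *Rian*, a maternally expressed noncoding RNA that hosts small nucleolar RNAs, was at 241, 230 and 223 CPM in controls and at 373, 323, 248, 253 and 305 CPM in deleted cortices, with no overlap. Its log2 fold change was 0.40 (SE 0.10, FDR = 0.154) in the cortex and 0.18 (SE 0.07, FDR = 0.382) in the neurons. *Meg3*, the maternally expressed RNA next to the control region, was at 0.47 (SE 0.29, FDR = 0.655) on the same scale in the cortex, and *Dio3*, which inactivates thyroid hormone, at 0.04 (SE 0.25). The annotated span of *Rtl1* overlaps those of *Meg3* and *Rian* and of microRNA genes on the opposite strand. As the strand setting of the counting is not given in the sources used here, reads of these genes could not be assigned with certainty.

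In the *Peg3* domain, *Usp29*, a ubiquitin peptidase gene with its start beside that of *Peg3*, was at 45.6, 48.7 and 44.3 CPM in control cortices and at 55.7, 52.5, 52.5, 46.7 and 55.2 CPM in deleted ones, with a log2 fold change of 0.19 (SE 0.08, FDR = 0.426). Only deleted replicate 4 fell within the range of the controls. The maternally expressed *Zim1* was at 0.36 (SE 0.17, FDR = 0.490).

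The *Snrpn*-*Ube3a* domain on chromosome 7 corresponds to the human region of Prader-Willi and Angelman syndromes. Its paternally expressed genes had values of both signs in the cortex. *Magel2*, which encodes a MAGE family protein of endosomal recycling, was at 59.4, 32.6 and 22.4 CPM in controls and at 122, 53.2, 36.1, 31.9 and 30.9 CPM in deleted samples, a log2 fold change of 0.63 (SE 0.14, FDR = 0.139). *Ndn*, encoding the related protein necdin, was at 552, 417 and 411 CPM and at 677, 493, 579, 425 and 422 CPM, a log2 fold change of 0.23 (SE 0.08, FDR = 0.302). The litter 3 libraries were the highest of both groups for both genes. Without litter 3 the values were 0.47 (FDR = 0.396) for *Magel2* and 0.20 (FDR = 0.580) for *Ndn*. *Mkrn3*, a makorin-type RING finger gene, was at 16.8, 18.3 and 18.8 CPM in controls and at 15.9, 15.3, 15.7, 13.3 and 14.1 CPM in deleted cortices, with no overlap and a log2 fold change of -0.27 (SE 0.11, FDR = 0.393). *Peg12*, a FRAT family gene of Wnt signalling, had a log2 fold change of -0.32 (SE 0.10, FDR = 0.277). The maternally expressed ubiquitin ligase gene *Ube3a* was at 0.15 (SE 0.08, FDR = 0.545), and *Snrpn* at 0.06 (SE 0.19, and -0.09 without litter 3). *Snurf*, which is read from the same transcript as *Snrpn*, was listed at 0 in every library. Its annotated span lies within that of *Snrpn*, and how shared reads were counted is not given in the sources used here. The 0 of *Snurf* is therefore not evidence of absence, and the level of *Snrpn* may be understated.

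Among the remaining domains, the other cortex genes with an unadjusted p below 0.05 were *Mest*, a hydrolase-fold protein gene (0.25, SE 0.08, FDR = 0.286), *Nnat*, which encodes the proteolipid neuronatin (0.19, SE 0.08, FDR = 0.437), *Impact*, a modulator of GCN2-dependent translation control (0.36, SE 0.14, FDR = 0.393), *Inpp5f*, an inositol phosphatase gene (0.16, SE 0.07, FDR = 0.454), *Kcnq1ot1*, a paternally expressed noncoding RNA within *Kcnq1* (0.42, SE 0.16, FDR = 0.349), and *Sfmbt2*, which encodes a Polycomb-associated protein (0.76, SE 0.27, FDR = 0.323). *Nap1l4*, another nucleosome assembly protein gene, was at -0.16 (SE 0.06, FDR = 0.380). None of these 7 log2 fold changes passed the FDR threshold. The growth genes showed no detectable genotype difference at this spread. *Igf2*, the foetal growth factor gene, was at 0.23 (SE 0.64), *H19*, its maternally expressed noncoding neighbour, at -0.05 (SE 0.40), *Igf2r* at 0.07 (SE 0.07), *Grb10*, an adaptor that restrains growth factor receptors, at 0.02 (SE 0.06, and -0.03 without litter 3), *Cdkn1c*, the p57 cell cycle inhibitor gene, at 0.10 (SE 0.18, and -0.10 without litter 3) and *Plagl1* at 0.11 (SE 0.09).

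The wide error of *Igf2* and *H19* went with 2 libraries of litter 1. *Igf2* was at 163 CPM in control replicate 3 and 261 CPM in deleted replicate 4, the libraries with high meningeal fibroblast markers, and at 46.6 to 93.1 CPM in the other 6 cortices. *H19* was at 145 and 212 CPM in these libraries and at 73.1 to 112 CPM in the others. *Dcn*, the gene of the matrix proteoglycan decorin, was at 26.3 and 37.0 CPM there and at 1.91 to 8.52 CPM elsewhere. The third litter 1 library, deleted replicate 5, had low values of all 3 genes and of the markers. Deleted replicate 1 of litter 3, with the highest subcortical sum, was the highest of the 8 cortices for 18 of the 50 imprinted genes, among them *Zdbf2*, *Peg3*, *Nap1l5*, *Dlk1*, *Rtl1*, *Magel2*, *Ndn*, *Nnat* and *Mest*, against 17.3% of all genes tested. The libraries with the highest *Igf2* also had high choroid plexus sums. The highest choroid plexus sum, 528 CPM, was however in control replicate 2, where *Igf2* was at 57.1 CPM. The subcortical sum moved with genotype in all 3 litters. The part of these marker differences in the genotype values was not tested. For *Zdbf2* the call held without litter 3. For *Peg3* and *Nap1l5* the log2 fold changes without litter 3 were 0.49 (SE 0.10) and 0.53 (SE 0.11), each with FDR = 0.131.

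**Figure D3:**
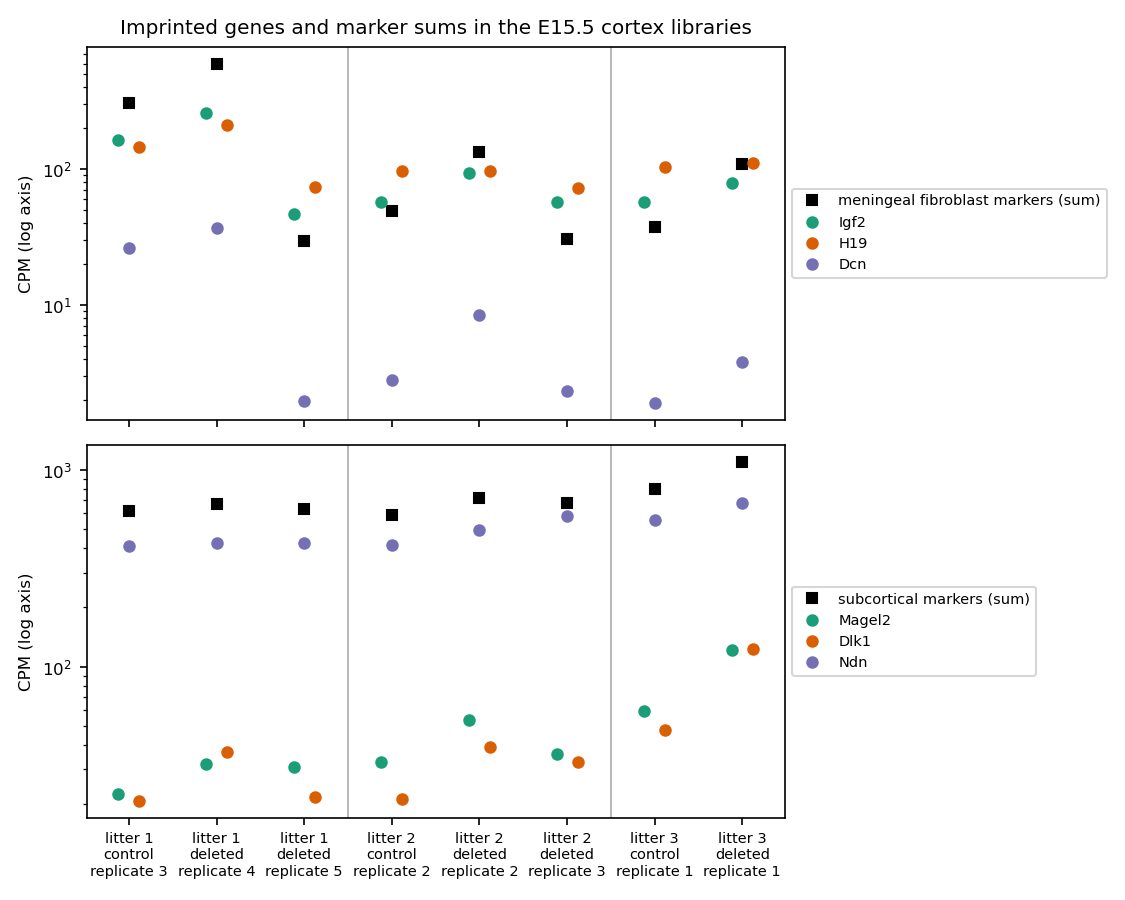
CPM on a log axis in each E15.5 cortex library, ordered by litter, of Igf2, H19 and Dcn beside the summed meningeal fibroblast markers (top) and of Magel2, Dlk1 and Ndn beside the summed subcortical markers (bottom). The meningeal sum, Igf2, H19 and Dcn were highest in control replicate 3 and deleted replicate 4 of litter 1, and the subcortical sum and Ndn, Dlk1 and Magel2 were highest in deleted replicate 1 of litter 3.

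In the neurons, 48 imprinted genes were tested, and *Zdbf2* was the one with an FDR below 0.05 (2.08%, against 0.273% of all genes, 0.194% upregulated and 0.0791% downregulated). At an unadjusted p below 0.05, 4 had positive and 1 a negative value, or 8.33% and 2.08%, against 5.87% and 4.46% of all 13909 genes (10.3% together), and the median log2 fold change was 0.01, against 0.001 over all genes. These shares were close to the background. The endothelial and choroid plexus marker sums, which were higher in every deleted culture than in every control, moved with genotype here, and their part in the neuronal values was not tested. Of the subcortical genes, 9 were tested and 1, *Lhx9*, was higher at an FDR below 0.05, with a median log2 fold change of -0.006. The subcortical sums overlapped, at 125 to 207 CPM in control and 162 to 226 CPM in deleted cultures. Beside *Zdbf2* the genes at this p were *Rian*, *Inpp5f* (0.16, SE 0.05, FDR = 0.285), *Dcn* (0.85, SE 0.40, FDR = 0.479, from 0.382 to 3.49 CPM) and *Herc3*. *Inpp5f* was at 389, 362 and 365 CPM in controls and at 404, 445, 421 and 383 CPM in deleted neurons, where deleted replicate 4 fell within the control range. *Cd81*, a tetraspanin gene, also lay higher in every deleted culture (100.4 to 107.5 CPM) than in every control (96.1 to 98.8 CPM), with a log2 fold change of 0.05 (SE 0.06, FDR = 0.830). Complete separation upward was found for *Zdbf2* and *Cd81* (4.17%, against 3.67% of all genes) and downward for *Herc3* (2.08%, against 3.62%). In all 3 litters with both genotypes the deleted cultures exceeded their control for 10 of the 48 (20.8%, against 15.7% of all genes) and lay below it for 7 (14.6%, against 15.9%).

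Whether the genotype effect differed between the tissues was tested in one fit over all 15 libraries. None of the 50 imprinted genes tested had an FDR below 0.05 for this difference by edgeR, and none by limma, against 0.0133% of all genes (0.00667% in each direction), while 7 had an unadjusted p below 0.05 by either tool. All 7 were paternally expressed and had lower values in the neurons than in the cortex (14%, against 2.92% of all genes, with 2.27% of all genes higher and 5.19% in either direction). The difference was -0.55 (SE 0.12, FDR = 0.490) for *Nap1l5* and -0.48 (SE 0.12, FDR = 0.607) for *Peg3*. The others were *Dlk1* at -1.70 (SE 0.50), *Rtl1* at -1.91 (SE 0.64), *Magel2* at -0.62 (SE 0.28), *Nnat* at -0.28 (SE 0.13) and *Usp29* at -0.26 (SE 0.11). The call of *Peg3* and *Nap1l5* in one tissue and not in the other was therefore not shown to be a difference between tissues. *Dlk1* and *Magel2* were at 0.0604 to 2.01 and 2.30 to 4.06 CPM in the neuronal cultures, and *Rtl1* at 0.14 to 0.499 CPM, or 3 to 12 reads per library, so their neuronal values rest on few reads.

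The factors known to maintain imprints were examined as a list of 23 genes, which includes *Zfp57*, *Zfp445* and *Trim28* that protect imprinted methylation, the DNA methyltransferases, the TET demethylases, *Ctcf* and Polycomb subunits. Of these, 21 were tested in each tissue and none had an FDR below 0.05 by edgeR. At an unadjusted p below 0.05, which 10.5% of all genes passed in the cortex and 10.3% in the neurons, *Tet1* (0.24, SE 0.08), *Tet2* (0.21, SE 0.09) and *Atrx* (0.20, SE 0.07) had positive values in the cortex. In the neurons *Tet1* (0.17, SE 0.08) was positive and *Ezh2* (-0.19, SE 0.06) and *Hells* (-0.33, SE 0.11) were negative. The medians were -0.02 and -0.01. In the *Peg10* domain, for comparison, 2 of 8 genes tested in the cortex (*Peg10* and *Asb4*) and 1 of 6 in the neurons (*Peg10*) were upregulated at an FDR below 0.05, against 0.319% and 0.194% of all genes.

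The imprinted genes ranged from high to barely detected levels. Levels between genes are compared as RPKM, which is CPM divided by exonic length in kilobases, with one scaling over all libraries. In control cortices, 4 genes exceeded 100 RPKM and 10 lay at or below 1 RPKM. *Nnat* was highest at 1690.0 ± 366 RPKM (SD, n = 3), followed by *Ndn* at 264 ± 45.7, *Gnas*, encoding the stimulatory G protein subunit, at 215 ± 11.1 and *Nap1l4* at 135 ± 6.71. *Mest* was at 92.6 ± 10.5, and *Grb10*, *Rian*, *Cd81*, *Cdkn1c*, *Peg13*, *Blcap* and *Inpp5f* lay close together at 55.9 to 64.0. Among the 44 genes above 1 RPKM, 9 of the 43 pairs of neighbours in this order had no overlap between their library values, and the others did not differ beyond their spread. *Zdbf2* was 35th at 5.43 ± 0.60 RPKM, *Peg3* 21st at 18.3 ± 2.84 and *Nap1l5* 23rd at 15.0 ± 1.80. *Phlda2*, *Ascl2*, *Slc22a18* and *Snurf* had at most 14 reads in any library and were not tested, and *Ddc* and *Slc38a4* did not pass the filter in the neurons.

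**Figure D4:**
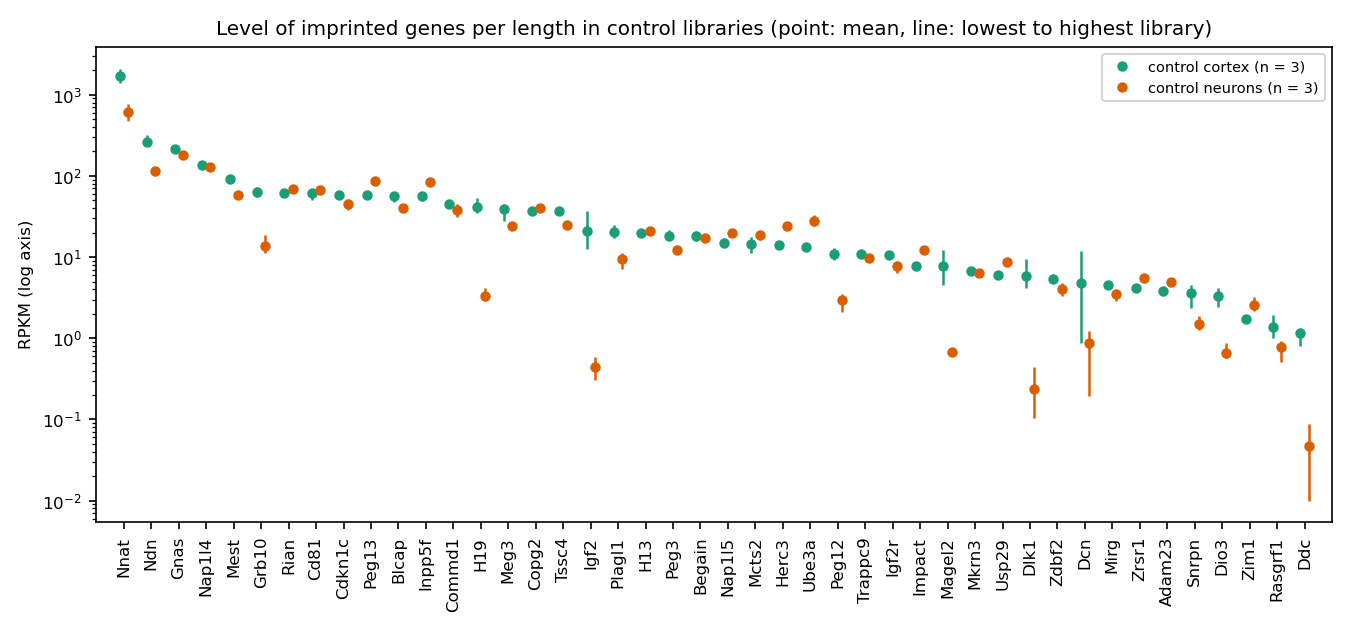
Level per length (RPKM, log axis) of the 44 imprinted genes above 1 RPKM in control cortices, in control cortices and control neurons, with points at the mean and lines from the lowest to the highest of 3 libraries. Nnat was highest in both tissues, and Igf2, Dlk1, Magel2, H19 and Ddc show the widest gaps between cortex and neurons.

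Control neurons were compared with control cortices (n = 3 each), which differ in age, culture, litter and the *Nes*-cre transgene at once, so that these cannot be told apart. In bulk RNA, fewer cells of a type and less RNA per cell also cannot be told apart. Of 49 imprinted genes tested, 11 were higher and 23 lower in the neurons at an FDR below 0.05 (22.4% and 46.9%), against 24.7% and 26.4% of all 14320 genes (51.1% together). The median log2 fold change was -0.37 over the imprinted genes and -0.03 over all genes. Scaling by library totals alone moved the median of all genes to -0.17 and that of the imprinted genes to -0.51, with 7 higher and 26 lower. Paternally expressed genes were higher in 5 and lower in 13 of 24 cases (median -0.64), maternally expressed genes higher in 3 and lower in 4 of 13 (median -0.14).

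Among genes with an FDR below 0.05, the 5 furthest below cortex were *Igf2*, *Dlk1*, *Ddc*, *H19* and *Magel2*. *Igf2* went from 57.1 to 163 CPM in control cortices to 1.214 to 2.35 CPM in control neurons, a log2 fold change of -5.59 (SE 0.72, FDR = 0.0034). *Dlk1* was at -4.56 (SE 0.62, FDR = 0.0017), the dopa decarboxylase gene *Ddc* at -4.56 (SE 0.64, FDR = 6.14e-05), *H19* at -3.64 (SE 0.20, FDR = 7.98e-07) and *Magel2* at -3.53 (SE 0.39, FDR = 0.00028). *Ddc* had 3, 4 and 0 reads in the control neurons and passed the filter on low counts only through the cortices. Its direction here followed from that filter, and its place in this order rests on few reads. Beside these, all 10 subcortical, all 10 endothelial and mural and all 8 radial glia markers were lower in the neurons at this FDR, with medians of -2.33, -6.40 and -1.97. The meningeal fibroblast sum was at 37.5 to 309 CPM in control cortices and at 12.7 to 18.3 CPM in control neurons. The part of these cell types in the values was not tested. *Dio3* (-2.33), *Grb10* (-2.21), *Peg12* (-1.88), *Nnat* (-1.45), *Ndn* (-1.20) and *Plagl1* (-1.11) were lower as well.

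Among genes with an FDR below 0.05, the 5 furthest above cortex were *Kcnk9*, *Ube3a*, *Herc3*, *Impact* and *Zim1*. *Kcnk9*, the maternally expressed gene of a two-pore potassium channel, was at 0.561, 0.671 and 1.14 CPM in control cortices and at 2.18, 3.79 and 5.73 CPM in control neurons, a log2 fold change of 2.46 (SE 0.43, FDR = 0.00039). *Ube3a*, whose paternal copy is known to be silenced in maturing neurons, was at 81.4, 86.2 and 91.3 CPM in cortex and at 156, 138 and 190 CPM in neurons, a log2 fold change of 1.05 (SE 0.11, FDR = 7.25e-06). *Herc3* was at 0.76 (SE 0.10), *Impact* at 0.67 (SE 0.11) and *Zim1* at 0.60 (SE 0.20, FDR = 0.0244). The call of *Zim1* was lost without cortex control replicate 1 (FDR = 0.0599), cortex control replicate 3 (FDR = 0.0711) or neuronal control replicate 3 (FDR = 0.123), and with library totals (FDR = 0.0726).

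**Figure D5:**
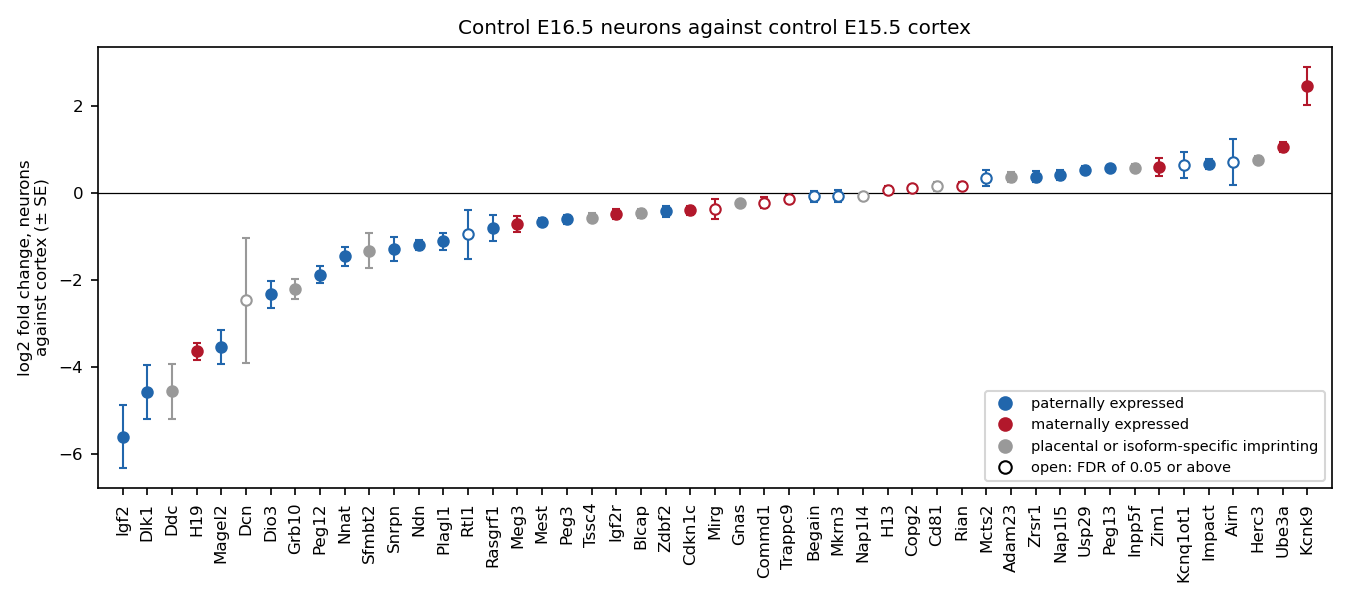
Log2 fold change (± SE) of 49 imprinted genes, control E16.5 neurons against control E15.5 cortex, in order of size and coloured by the parental copy expressed, with open points where the FDR was 0.05 or above. Igf2 lies lowest at -5.59 and Kcnk9 highest at 2.46, with 31 genes below 0 and 18 above.

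Genes that share a locus differed in level and in tissue pattern. The noncoding RNA *Peg13* lies within *Trappc9*, a vesicle trafficking gene. In control cortices it was at 58.1 ± 2.23 RPKM and *Trappc9* at 10.8 ± 0.74 (SD, n = 3), and in neurons *Peg13* was higher by a log2 fold change of 0.57 (SE 0.07, FDR = 3.09e-05) while *Trappc9* was at -0.14 (SE 0.09, FDR = 0.209). *Nnat* lies in an intron of *Blcap* and was at 1690.0 ± 366 RPKM, against 56.0 ± 6.87 for *Blcap*, and both were lower in neurons, by -1.45 (SE 0.22) and -0.47 (SE 0.11). The splicing factor retrogene *Zrsr1* was at 4.195 ± 0.10 RPKM and its host *Commd1* at 44.8 ± 4.00, with log2 fold changes of 0.38 (SE 0.12, FDR = 0.020) and -0.22 (SE 0.13, FDR = 0.182). *Mcts2*, a retrogene within *H13*, was at 14.6 ± 3.32 RPKM and *H13* at 19.8 ± 1.22, and neither differed between the tissues at an FDR below 0.05 (0.34, SE 0.18, and 0.08, SE 0.08). *Nap1l5* and *Herc3* were at 15.0 ± 1.80 and 14.2 ± 1.17 RPKM, and both were higher in neurons, by 0.41 (SE 0.12) and 0.76 (SE 0.10). *Mest* was at 92.6 ± 10.5 RPKM and lower in neurons by a log2 fold change of -0.67 (SE 0.10), while *Copg2*, which overlaps its end, was at 37.1 ± 2.45 RPKM with a log2 fold change of 0.10 (SE 0.09, FDR = 0.339). *Igf2r*, the receptor that clears IGF2, was at 10.8 ± 0.42 RPKM and lower by -0.49 (SE 0.11), and its antisense RNA *Airn* at 0.38 ± 0.29 RPKM with 0.72 (SE 0.52, FDR = 0.272). *Snrpn* was at 3.62 ± 1.14 RPKM and lower by -1.29 (SE 0.27), with *Snurf* at 0 in both tissues. Where such genes overlap, reads of one may have been counted for the other or for neither, so that levels such as those of *Snrpn* and *Snurf* are uncertain.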

How the data were processed

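RNA was sequenced from 8 E15.5 cortices and 7 E16.5 cortical neuron cultures with a stranded RNA library kit. The authors aligned paired-end reads to mm10 with the Rsubread aligner and deposited raw counts per Entrez gene from featureCounts with its inbuilt RefSeq annotation, and the strand setting of the counting is not given in the sources used here. All 15 per-sample files equalled their column of the series table. Entries without an identifier (at most 0.6054% of a library's counts) were left out. Of 26150 identifiers, 875 were not matched to RefSeq on GRCm38.p6, and pseudogenes (835), rRNA genes (35) and predicted genes (1273) were removed.

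Counts were filtered with filterByExpr at its defaults, scaled by TMM and tested with edgeR 4.0.16 (robust quasi-likelihood F test) in R 4.3.3, each tissue on its own with litter, as the labels give it, as a fixed term. The tissue comparison of controls had no covariate, and the difference of genotype effects used all libraries. FDRs are Benjamini-Hochberg values over all genes tested, errors of log2 fold changes are standard errors of the fit, CPM use TMM library sizes, and RPKM use the deposited exonic length. Alternatives were limma 3.58.1, DESeq2 1.42.0, other scaling, no filter, no litter term, the replicate number as a block, and each library left out. Leaving out litters 1 and 3 was added after the data were seen. No litter held more than 1 control, so leaving out a control also took its litter out of the genotype comparison. In the neurons, leaving out the deleted culture of litter 4, 5 or 6 did the same. Scripts were tested on simulated data. For genotype, the p-values weigh an effect against the variation between these samples that is left after the litter term. For the control tissues, they weigh it against the variation within each group. Genes with an FDR below 0.05 for genotype and their nested or neighbouring partners are given by library, those with an unadjusted p below 0.05 or separated groups by log2 fold change, and between tissues the 5 furthest in each direction and the nested pairs. Values of other imprinted genes were chosen after they were seen. Parental classes are from general knowledge, and the members and lists were chosen with earlier results of these data known. One gene of the list of neighbouring genes is not reported here.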

Additional observations from a re-analysis of the deposited data

Results flagged for a closer look

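In the *Phf6*-/Y cortices (n = 5), the value of 1 library lay far from the other 4, relative to their whole range, for 6 of the imprinted genes named for a genotype value. In deleted replicate 1 of litter 3, *Zdbf2* was at 164 CPM against 96.0 to 108 CPM in the others, *Dlk1* at 122 against 21.7 to 38.9, *Magel2* at 122 against 30.9 to 53.2, *Mest* at 423 against 266 to 303 and *Peg12* at 34.2 against 18.8 to 22.0. This library also had the highest subcortical marker sum (1095 CPM), and its control littermate had the highest value among controls for each of these 5 genes. In deleted replicate 4 of litter 1, *Dcn* was at 37.0 CPM against 1.97 to 8.52, beside a meningeal fibroblast sum of 596 CPM. The 6 are out of 42 combinations of gene and group examined with Dixon's criterion, which chance alone passes in about 1 group in 20, and the genes share libraries. The part of the markers in these values was not tested.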

How the results depend on the processing

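In the cortex, the number of imprinted genes with an FDR below 0.05 was 3, and it was also 3 with limma, with DESeq2's size factors in edgeR and with library totals, and 4 without the filter or without litter 1. DESeq2 called 6, adding *Rtl1*, *Rian* and *Magel2*, and the replicate number as a block in place of litter called 7. Without litter 3 it was 1, and with libraries left out in turn it was 1 to 6. In the neurons the number was 1, it ranged from 0 to 4 with libraries left out, and it was 0 with the replicate number as a block, when 2 genes had an unadjusted p below 0.05. Without the litter term it was 0 by edgeR in both tissues, with 13 cortex genes and 3 neuronal genes at an unadjusted p below 0.05. In the neurons, control replicate 3 and deleted replicate 4, both of litter 6, gave 4 calls when left out (*Zdbf2*, *Rian* and *Inpp5f* with positive and *Nnat* with negative values). Leaving out control replicate 2 gave 0, with 5 genes at an unadjusted p below 0.05. In the cortex, 1 call (*Zdbf2*) was left without control replicate 1, 2 or 3 or deleted replicate 1 or 2. Leaving out deleted replicate 3 gave 6, adding *Meg3*, *Rian* and *Magel2*, and deleted replicate 5 gave 5, adding *Dlk1* and *Rtl1*. The causes were not tested. Replicate numbers were not taken to pair the samples. Deviations of same-numbered cortices correlated from -0.236 to 0.291 and those of same-numbered neuronal cultures from -0.218 to 0.288. Those of littermates ran from -0.126 to 0.482 and from 0.156 to 0.347, so the ranges overlapped. In the cortex, control and deleted replicates 1 were also littermates, as were control and deleted replicates 2. Number and litter could therefore not be separated there. The number for the difference between tissues in genotype effect was 0 with limma, with library totals and with each library left out, the alternatives run for it. Between control neurons and cortex it was 34, from 30 to 33 with libraries left out and from 33 to 35 otherwise, including 34 in the deleted libraries and 33 with the replicate block. The log2 fold changes of genes with an unadjusted p below 0.05 for genotype, and of the 10 named between tissues, kept their sign in all alternatives run. Of other values given, those of *Cdkn1c*, *Grb10* and *Snrpn* in the cortex turned negative without deleted replicate 1 (-0.09, -0.03 and -0.08) or without litter 3.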

Other observations

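Genes that lie in or beside these domains without being listed as imprinted were examined as a list of 23 genes, of which 16 were tested in the cortex and 12 in the neurons. None had an FDR below 0.05 by edgeR. In the cortex, *Th*, the tyrosine hydroxylase gene beside *Igf2*, had a log2 fold change of 0.99 (SE 0.23, FDR = 0.104). In the neurons, *Gabra5*, a GABA receptor subunit gene, had a log2 fold change of 0.49 (SE 0.10, FDR = 0.0624) and *Cobl*, an actin nucleator gene beside *Grb10*, one of 0.51 (SE 0.15, FDR = 0.223). These 3 genes had an unadjusted p below 0.05 in the tissue named, a threshold that 10.5% of all genes passed in the cortex and 10.3% in the neurons.

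Some imprinted genes varied widely between control libraries, several of them at low counts, and the share of such genes exceeded that of all genes in the cortex only. The ratio of the highest to the lowest of 3 controls exceeded 2 for 9 of 50 imprinted genes in the cortex, against 9.51% of all genes tested, and for 4 of 48 in the neurons, against 9.62%. In the cortex the ratio was 18.0 for the amino acid transporter gene *Slc38a4*, 13.8 for *Dcn*, 3.93 for *Airn*, 3.90 for *Rtl1*, 2.86 for *Igf2*, 2.65 for *Magel2*, 2.46 for *Sfmbt2*, 2.28 for *Dlk1* and 2.03 for *Kcnk9*. The control cortices held 6 to 107 reads of *Slc38a4*, 10 to 39 of *Airn*, 9 to 45 of *Rtl1* and 16 to 27 of *Kcnk9*, so these ratios rest on few reads. *Slc38a4*, *Dcn* and *Igf2* were highest in control replicate 3, the control with the highest meningeal fibroblast sum.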
